A study of Mus musculus with 2 samples.

Results

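The genes described here encode 10 secreted or cell-surface proteins of cytokine signalling that are often linked to p53-driven senescence. They are the CC chemokines *Ccl2* and *Ccl7*, the CXC chemokines *Cxcl1*, *Cxcl5*, *Cxcl10* and *Cxcl12*, the cytokines *Csf1* and *Lif*, the receptor subunit *Il6st* and the interleukin-33 receptor *Il1rl1*. They were chosen by symbol, and every probe whose RefSeq accession maps to them was taken, out of 24022 genes tested on the array. All 10 were on the array with 15 probes, and 14 of these could be tested, since on both arrays 1 channel or more was well above local background. In AIMP3-depleted mESCs 4 of the 10 were raised (*Ccl2*, *Ccl7*, *Csf1* and *Il1rl1*), 1 was lowered by its brightest probe (*Cxcl12*), and 5 did not pass the call (*Cxcl1*, *Cxcl5*, *Cxcl10*, *Lif* and *Il6st*).

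mESCs were obtained from blastocysts of AIMP3f/f;cre-ERT2 mice, in which 4-OHT (tamoxifen) switches on a Cre recombinase fused to a modified estrogen receptor that then removes the loxP-flanked AIMP3 alleles. The AIMP3-depleted group is 2 replicates of these cells kept for 4 days with 2 μM 4-OHT, and the control is AIMP3f/f;cre-ERT2 cells kept for 4 days with ethanol, with RNA of 2 cultures combined into 1 pool. Both groups carried the loxP-flanked alleles and cre-ERT2 and were kept in medium containing LIF, so AIMP3 loss cannot be told apart from 4-OHT or Cre activity as such. Per the labels, cells were generally kept on feeder layers of mouse embryonic fibroblasts (MEFs), and whereas the methods name medium conditioned by MEFs for drug incubations, the labels do not, so it is not settled whether feeder cells contributed to the RNA. Whether the replicates come from 1 clone is not given in the sources used here. Each array, an Agilent mouse gene expression array, received Cy5-labelled RNA of 1 AIMP3-depleted replicate together with the Cy3-labelled control pool. The dyes were not swapped and both arrays shared 1 slide, so a dye difference particular to a probe cannot be told apart from the treatment, and the control pool counts as 1 sample.

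Chemokines are small secreted proteins that draw leukocytes along a gradient through G protein-coupled receptors, and many of them are induced by NF-kappaB. Cells that enter senescence after DNA damage often secrete chemokines, colony-stimulating factors, growth factors and proteases, a mixture called the senescence-associated secretory phenotype. In mESCs, LIF has another role, since it signals through LIFR and gp130, the product of *Il6st*, to STAT3 and keeps the cells undifferentiated.

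To show the sequence context of the members, promoter windows were read from RefSeq on GRCm38.p6, each holding 250 bases before and 50 bases after an annotated gene start. The table held 8 windows for 7 of the 10 members, with 2 for *Il1rl1*, and no window is shown for *Ccl2*, *Ccl7* and *Cxcl5*. Printed here are the 4 windows with a match to the NF-kappaB motif, which belong to *Cxcl1*, *Cxcl10*, *Csf1* and *Lif*, and both windows of *Il1rl1*, the member with the highest ratio. Capitals mark motif matches on either strand, and positions count from the gene start as 1. The *Cxcl1* window lies on the plus strand at chr5:90890995-90891294 and the *Cxcl10* window on the minus strand at chr5:92348840-92349139. The *Csf1* window lies on the minus strand at chr3:107760420-107760719 and the *Lif* window on the plus strand at chr11:4257318-4257617. The *Il1rl1* windows lie on the plus strand at chr1:40429320-40429619 (upstream) and chr1:40439379-40439678 (downstream).
Cxcl1: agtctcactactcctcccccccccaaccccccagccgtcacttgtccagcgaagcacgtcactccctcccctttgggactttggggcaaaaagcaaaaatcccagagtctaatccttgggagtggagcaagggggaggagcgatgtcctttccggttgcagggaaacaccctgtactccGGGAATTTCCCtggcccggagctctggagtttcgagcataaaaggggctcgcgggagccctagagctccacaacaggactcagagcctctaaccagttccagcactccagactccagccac
Cxcl10: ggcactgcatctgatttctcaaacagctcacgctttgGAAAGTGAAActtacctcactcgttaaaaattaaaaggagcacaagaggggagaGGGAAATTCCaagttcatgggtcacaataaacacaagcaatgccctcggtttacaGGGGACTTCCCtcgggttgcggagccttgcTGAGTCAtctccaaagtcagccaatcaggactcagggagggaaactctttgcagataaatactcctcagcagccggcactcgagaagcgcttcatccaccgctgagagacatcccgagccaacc
Csf1: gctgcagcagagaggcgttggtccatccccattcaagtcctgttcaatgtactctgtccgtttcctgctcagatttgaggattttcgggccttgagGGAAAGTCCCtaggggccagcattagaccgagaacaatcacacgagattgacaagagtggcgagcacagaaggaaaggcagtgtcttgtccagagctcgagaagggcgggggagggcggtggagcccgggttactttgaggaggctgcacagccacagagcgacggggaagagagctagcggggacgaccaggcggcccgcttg
Lif: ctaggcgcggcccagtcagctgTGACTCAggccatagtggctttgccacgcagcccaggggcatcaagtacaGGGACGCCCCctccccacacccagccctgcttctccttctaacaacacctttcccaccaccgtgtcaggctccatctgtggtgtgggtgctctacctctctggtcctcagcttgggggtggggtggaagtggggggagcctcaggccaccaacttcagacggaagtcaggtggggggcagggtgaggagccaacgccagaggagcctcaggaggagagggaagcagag
Il1rl1, upstream window: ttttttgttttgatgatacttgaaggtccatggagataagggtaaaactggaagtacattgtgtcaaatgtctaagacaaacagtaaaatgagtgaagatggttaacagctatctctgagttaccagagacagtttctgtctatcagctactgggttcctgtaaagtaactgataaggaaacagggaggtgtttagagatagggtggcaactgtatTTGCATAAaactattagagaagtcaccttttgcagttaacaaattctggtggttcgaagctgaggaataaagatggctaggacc
Il1rl1, downstream window: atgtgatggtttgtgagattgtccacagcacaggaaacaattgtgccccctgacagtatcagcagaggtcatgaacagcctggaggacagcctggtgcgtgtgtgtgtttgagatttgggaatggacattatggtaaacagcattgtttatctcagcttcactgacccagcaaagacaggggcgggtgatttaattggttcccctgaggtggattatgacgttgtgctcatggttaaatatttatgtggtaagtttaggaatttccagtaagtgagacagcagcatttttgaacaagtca

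The NF-kappaB motif was in 4 of the 8 member windows and in 8.46% of all 32851 windows of this length. In *Cxcl1* it spans -71 to -61, with matches on both strands that overlap, and in *Cxcl10* it lies at -159 to -150 and, with overlapping matches, at -104 to -94. In *Csf1* it lies at -154 to -145 on the opposite strand, and in *Lif* at -178 to -169. Of these genes, *Csf1* alone passed the call. The other motifs searched on both strands were AP-1 (TGANTCA), the TATA box (TATAAA), the interferon-stimulated response element (ISRE, searched by its consensus), STAT (TTCNNNGAA), C/EBP (TTGCNNAA) and the p53 decamer, also searched by its consensus. AP-1 was in 2 member windows, at -74 to -68 of *Cxcl10* and -228 to -222 of *Lif*, and in 7.81% of all windows. The ISRE was in 1 window, at -213 to -204 of *Cxcl10*, and in 3.44% of all windows. C/EBP was in 1 window, at -34 to -27 of the upstream *Il1rl1* window, and in 10.8% of all windows. The TATA box, STAT and p53 letters were in 0 of the 8 windows and in 13.6%, 8.3% and 8.36% of all windows. A match describes letters only and is neither a binding site nor a cause of any change below.

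Ratios are given as the log2 of AIMP3-depleted over control after background correction and loess, so positive values are higher in AIMP3-depleted mESCs. The methods word their averaged ratio the other way, as control over test. The targeted gene, *Eef1e1*, which encodes AIMP3, gave log2 ratios of -0.90 on both arrays and was lowered (1.87-fold lower; Benjamini-Hochberg adjusted p = 7.71e-05, limma). Whether its probe lies in the deleted part is not given in the sources used here. A gene was called raised or lowered when it passed 1.5-fold and an adjusted p of 0.05 over all 33012 tested probes. The p-values reflect the spread between the 2 AIMP3-depleted samples only, which may be technical, and not that between control cultures. Signals are the dye-normalised processed intensities of the scanner software, and they are compared within a probe, except where the signals of a marker list are summed, so that bright probes weigh most in such a sum. The median signal over local background was 2.68 to 3.31 across the 4 channels, 59.3% to 60.6% of spots per channel were well above background, and the median SD between arrays was 0.0509 on the log2 scale.

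By the brightest probe of each gene, 5.52% of all tested genes were raised and 0.791% were lowered, against 4 and 1 of the 10 members. Over every tested probe, 7 of the 14 member probes were raised, against 4.97% of all probes. Since the members had been picked with results of these data in view, these shares are descriptive. The median log2 ratio of the members was 0.54, and that of all tested genes 0.02. At an adjusted p under 0.05 with no fold threshold, 51.8% of all tested genes passed, so the fold decided most calls.

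**Figure D1:**
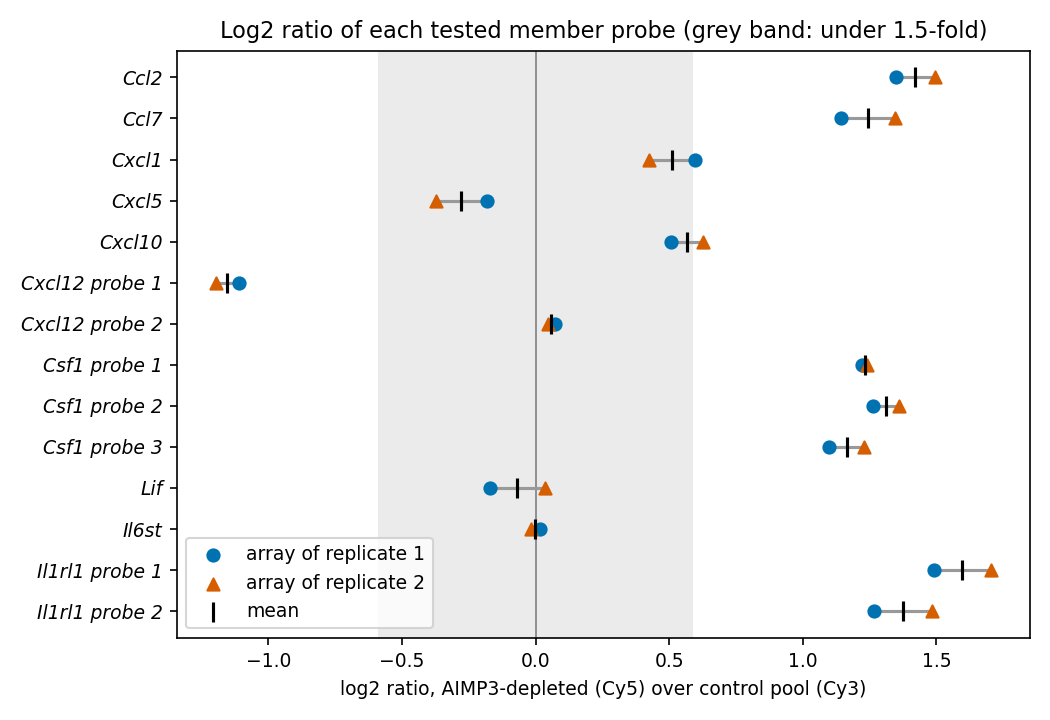
Log2 ratio of AIMP3-depleted over control (horizontal axis) for the 14 tested probes of the 10 genes, with a point for each of the 2 arrays, a bar for their mean and a grey band for values under 1.5-fold. *Csf1*, *Ccl2*, *Ccl7* and *Il1rl1* lie to the right on both arrays, and only the brightest *Cxcl12* probe lies past the fold threshold to the left, while the other *Cxcl12* probe, *Lif* and *Il6st* lie near 0.

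Among the CC chemokines, *Ccl2* (MCP-1), the ligand of CCR2 that attracts monocytes, was measured by 1 probe spotted 10 times. Its control signals were 670 and 630 on the arrays of replicates 1 and 2, and its AIMP3-depleted signals were 1729 and 1807. Both AIMP3-depleted signals lay above both measurements of the pool. The log2 ratio was 1.35 and 1.49, with a mean of 1.42 ± 0.103 (SD, n = 2), a 2.68-fold rise (Benjamini-Hochberg adjusted p = 5.61e-05, limma). The 10 spots gave 1.21 to 1.49 on the array of replicate 1 and 1.39 to 1.59 on that of replicate 2, with SDs of 0.0762 and 0.0695. No spot of either array was near the fold threshold, and the spot ranges of the arrays overlapped.

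*Ccl7* (MCP-3), a monocyte chemokine encoded beside *Ccl2*, had control signals of 117 and 100.4 and AIMP3-depleted signals of 306 and 334. Its channels were likewise separate on both arrays. Its log2 ratio was 1.14 and 1.34, with a mean of 1.24 ± 0.144 (SD, n = 2), a 2.37-fold rise (Benjamini-Hochberg adjusted p = 7.41e-05, limma). In the control its signal was 4.59 to 4.95 times local background, and in AIMP3-depleted cells 14.2 to 14.8 times. Both genes were raised under each background correction and dye normalization tried, with log2 ratios of 1.35 to 1.63 for *Ccl2* and 1.14 to 1.60 for *Ccl7* over all settings. The receptors of these ligands were at or near background. *Ccr1* and *Ccr2* were not well above background in any channel and were not tested, and *Ccr3* gave a log2 ratio of 0.15 and did not pass the call.

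The CXC chemokines differed in direction. *Cxcl10* (IP-10), an interferon-inducible ligand of CXCR3, had control signals of 436 and 426 and AIMP3-depleted signals of 616 and 670. All AIMP3-depleted values were higher, with log2 ratios of 0.51 and 0.63 and a mean of 0.57 ± 0.0852 (SD, n = 2; Benjamini-Hochberg adjusted p = 0.00041, limma). At 1.48-fold it lay just under the fold threshold and was not called. With median centring in place of loess it was 0.76, and in the authors' deposited table it was 0.61, and both of these passed. Median centring also moved the median of all tested genes to 0.18, and relative to that median *Cxcl10* stays at about its loess value. *Cxcr3* was not well above background in any channel.

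*Cxcl1* (KC), a neutrophil chemokine that acts through CXCR2, was dim. Its signal was 2.09 and 2.23 times local background in the control and 3.78 and 3.11 times in AIMP3-depleted cells. The control signals were 18.6 and 27.2, so that the same pool differed by 0.55 on the log2 scale between arrays, and the AIMP3-depleted signals were 47.9 and 46.8. The log2 ratio was 0.60 and 0.42, with a mean of 0.51 ± 0.124 (SD, n = 2; 1.42-fold; Benjamini-Hochberg adjusted p = 0.000864, limma), and it was not called. Among the brightest probes of the members, background correction and dye normalization moved this value most. Without subtraction it was 0.60, with the processed signals it was 1.08, and in the authors' table it was 1.12, and in each of these it passed. *Cxcr2* was not well above background in any channel.

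*Cxcl5* (LIX), another neutrophil chemokine that acts through CXCR2, had control signals of 72.4 and 75.0 and AIMP3-depleted signals of 52.7 and 47.5. It was lower on both arrays, with log2 ratios of -0.18 and -0.37 and a mean of -0.28 ± 0.135 (SD, n = 2; 1.21-fold lower; Benjamini-Hochberg adjusted p = 0.0099, limma), and it did not pass the fold threshold. With the processed signals it was -0.56 and in the authors' table -0.52, both larger in size and still short of the threshold. Its signal was 2.67 to 3.39 times local background in the 4 channels. *Cxcl5* and *Cxcl1* are annotated in the same chromosomal cluster and lay on opposite sides of 0. Of the other genes of that cluster, named after their values were seen, *Pf4* was raised (log2 ratio 1.00), *Cxcl15* gave 0.45 and 1.03 with a control signal only 1.27 times background on the array of replicate 2, so that its call rests on that array, *Ppbp* gave 0.57 and was not called, and *Cxcl2* and *Cxcl3* were not tested.

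*Cxcl12* (SDF-1), the stromal chemokine that acts through CXCR4 and is bound by the scavenging receptor ACKR3, was measured by 2 probes that differed. The brightest, designed to NM_001012477, had control signals of 1506 and 1428 and AIMP3-depleted signals of 640 and 592. Its log2 ratio was -1.11 and -1.20, with a mean of -1.15 ± 0.0610 (SD, n = 2), a 2.22-fold fall (Benjamini-Hochberg adjusted p = 5.72e-05, limma). The other probe, designed to NM_021704, had control signals of 165 and 162 and AIMP3-depleted signals of 159.5 and 159. After normexp and loess it gave log2 ratios of 0.07 and 0.05 (Benjamini-Hochberg adjusted p = 0.324, limma). The probes thus lay apart by -1.18 on one array and -1.24 on the other, a difference seen with the same sign on both and not tested. The accessions are separate RefSeq transcripts of the gene, and the fall was seen by the first of these probes only. Averaged over both probes the log2 ratio was -0.55 and the gene was not called. *Cxcr4* gave 0.04 and *Ackr3* gave 0.26, and neither passed the call.

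**Figure D2:**
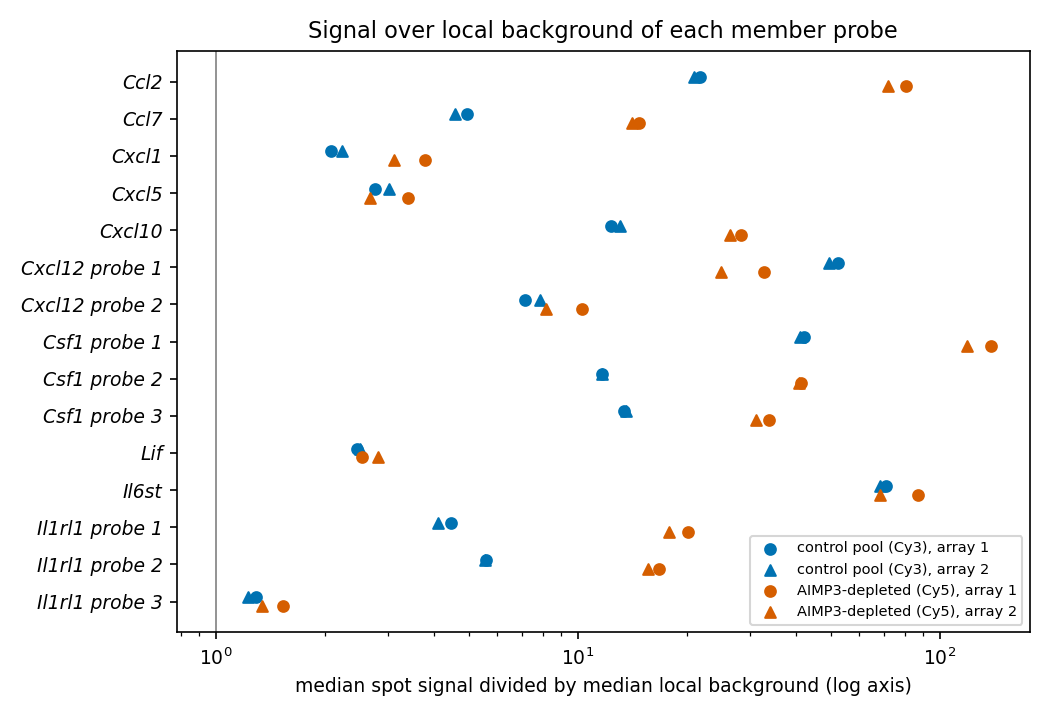
Raw signal over local background (log axis) of all 15 member probes in the control (Cy3) and AIMP3-depleted (Cy5) channels of both arrays. *Csf1*, *Ccl2*, *Il6st* and the brightest *Cxcl12* probe lie far above background, whereas *Cxcl1*, *Cxcl5* and *Lif* lie within about 4 times background in every channel, and the third *Il1rl1* probe lies closest to 1. The dyes are not yet normalized here, so the channels of a probe are not directly comparable.

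Of the cytokines, *Csf1* (M-CSF), which drives growth of macrophages from their precursors through CSF1R, was raised by all 3 of its probes. The brightest probe, spotted 10 times, had control signals of 1273 and 1196 and AIMP3-depleted signals of 2943 and 2806. Both arrays gave nearly the same log2 ratio, 1.22 and 1.24, with a mean of 1.23 ± 0.0135 (SD, n = 2), a 2.35-fold rise (Benjamini-Hochberg adjusted p = 5.61e-05, limma). Its spots differed by SDs of 0.0324 and 0.0493. The other probes gave 1.26 and 1.36 (mean 1.31) and 1.10 and 1.23 (mean 1.16). *Csf1* was the member with the closest agreement between arrays among those raised, and no probe came near the threshold. *Csf1r*, its receptor, had a log2 ratio of 0.41 by its brightest probe and 0.09 and 0.22 by the others, and was not called.

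*Lif* itself was dim, at 2.46 to 2.81 times local background. Its control signals were 37.1 and 46.2 and its AIMP3-depleted signals were 26.9 and 39.3. The arrays gave opposite signs, with log2 ratios of -0.17 and 0.03 and a mean of -0.07 ± 0.144 (SD, n = 2; Benjamini-Hochberg adjusted p = 0.388, limma). The 95% interval of the mean was -0.22 to 0.08 under this fit. It cannot exclude a larger change, because background correction adds a constant of 50 to each signal. That constant exceeds these signals and pulls the ratio toward 0. The processed signals were lower in AIMP3-depleted cells on both arrays, and their mean log2 ratio was -0.35. LIF protein was supplied in the medium, which an mRNA measurement does not cover.

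*Il6st*, which encodes gp130, the signalling subunit shared by the receptors of LIF and interleukin-6, was bright. It had control signals of 1836 and 1747 and AIMP3-depleted signals of 1844 and 1661. Its log2 ratio was 0.02 and -0.02, and the mean was -0.00063 ± 0.0248 (SD, n = 2; Benjamini-Hochberg adjusted p = 0.992, limma), with a 95% interval of -0.11 to 0.11. Of its partners, *Lifr* gave 0.08, *Stat3* gave 0.18 and *Socs3*, the feedback inhibitor induced by STAT3, gave -0.17, and none of these 3 passed the fold threshold.

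*Il1rl1* (ST2), the receptor for interleukin-33 and also made as a soluble decoy, had the highest ratio of the members. Its brightest probe, designed to NM_001025602, had control signals of 103 and 93.5 and AIMP3-depleted signals of 345 and 363. Its log2 ratio was 1.49 and 1.70, with a mean of 1.60 ± 0.151 (SD, n = 2), a 3.03-fold rise (Benjamini-Hochberg adjusted p = 5.62e-05, limma). The channels were separate on both arrays. A probe to another transcript, NM_010743, had control signals of 113 and 119 and AIMP3-depleted signals of 329 and 383. It gave 1.27 and 1.48, with a mean of 1.38 ± 0.154 (SD, n = 2), a 2.59-fold rise (Benjamini-Hochberg adjusted p = 6.66e-05, limma). The first probe lay 0.22 above the other on both arrays, which was not tested. Another probe to NM_001025602 was not well above background in any channel and was not tested, so the rise rests on 2 of 3 probes. Its ligand *Il33* gave a log2 ratio of 0.45 and its coreceptor *Il1rap* gave 0.24, and neither was called. The upstream and downstream windows printed above belong to separate annotated starts of the gene, and the probes do not show which start was used.

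**Figure D3:**
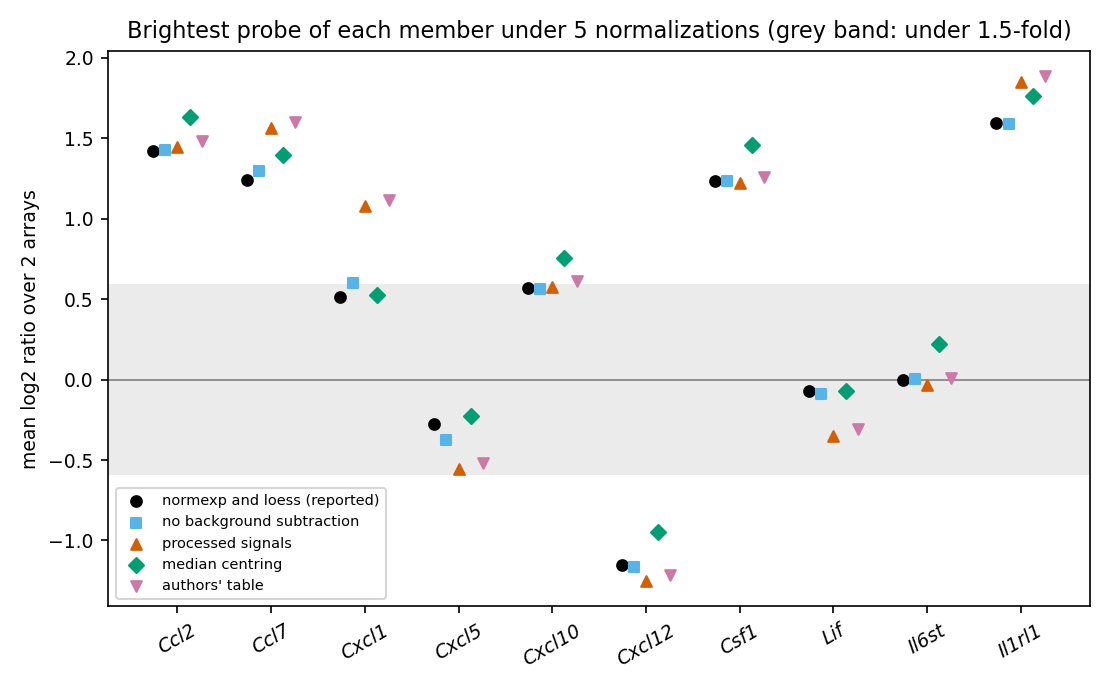
Mean log2 ratio of the brightest probe of each member (vertical axis) under the loess setting, no background subtraction, the scanner's processed signals, median centring and the authors' deposited table, with a grey band for values under 1.5-fold. *Ccl2*, *Ccl7*, *Csf1*, *Il1rl1* and *Cxcl12* stay past the threshold under each of these, *Cxcl1* ranges from 0.51 to 1.12, and *Cxcl10* lies on both sides of the threshold.

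The other chemokine ligands were described with a list of 32 genes, of which 17 were tested. Of these, 7 were raised and 0 were lowered, but 4 of the 17 were not well above background in every channel, so their ratios are inexact. Over the other 13, 5 were raised and 0 were lowered, with a median log2 ratio of 0.33. The largest among those well above background in every channel were *Ccl6* (1.43), *Ccl9* (1.08), *Pf4* (1.00) and *Ccl3* (0.91), which include chemokines known from myeloid cells and platelets. *Ccl4* was raised at least 2.01-fold from a control signal that was not well above background (Benjamini-Hochberg adjusted p = 9.42e-05, limma). Chemokine receptors were mostly undetected. Of 23 receptors, 8 were tested, 13 were not well above background in any channel, and 0 were called, with a median of 0.02.

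In the LIF and interleukin-6 family, 17 of 19 genes were tested, 2 were raised and 0 were lowered, with a median of 0.21. The raised genes were *Il6ra* (0.79), the interleukin-6 receptor, and *Osmr* (0.69), the oncostatin M receptor, both of which pair with gp130. *Il6*, a standard member of the senescence secretome, was not well above background in the control, so its ratio is a lower bound, at least 1.46-fold higher in AIMP3-depleted cells. It was not called, and its processed signals were 15.4 and 17.7 in the control and 44.1 and 44.9 in AIMP3-depleted cells. It was called raised without background subtraction (log2 ratio 0.59), with the processed signals (1.43) and in the authors' table (1.47), so that 3 genes of the family were then raised. With median centring the third raised gene was *Ptpn11*. All 12 genes of a list of LIF and STAT3 targets in mESCs were tested, and 0 were raised or lowered, with a median of 0.0079, against 1 raised with median centring and 1 in the authors' table. In the interleukin-1 family, in a list that leaves out *Il1rl1*, 12 of 21 genes were tested and 0 were called, with a median of 0.23. Under the other normalizations 1 or 2 of them were raised. Of 9 tested genes among colony-stimulating factors, stem cell factor and their receptors, 1 was raised, *Flt3*, well above background in 3 of 4 channels, with log2 ratios of 0.21 and 1.13 that differ widely. This call was lost without replicate 2, where the ratio is 0.21, and with the mean of its probes, and the other *Flt3* probe, well above background in all 4 channels, gave 0.20 and was not called. In that list 0 genes were raised and 1 was lowered with the processed signals and in the authors' table, and 4 were raised with median centring.

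In a list of NF-kappaB and C/EBP regulators that also holds adhesion molecules, 21 of 23 genes were tested. Of these, 4 were raised and 0 were lowered, with a median of 0.26. The raised genes were the adhesion molecule *Vcam1* (0.94), the NF-kappaB inhibitor *Tnfaip3* (0.89), the transcription factor *Cebpb* (0.87) and the receptor *Tnfrsf1a* (0.67). Of 27 tested genes for other secreted factors of senescent cells, 26 had a positive log2 ratio, 8 were raised and 0 were lowered, with a median of 0.47. Of the 27, 2 were not well above background in every channel, among them *Il6*, tested through its AIMP3-depleted channel only. Over the other 25, 24 had a positive log2 ratio, against 52.7% of all tested genes. Of these 25, 8 were raised and 0 were lowered, with a median of 0.47. Over all 27, the number raised was 13 with the processed signals and in the authors' table. Among them were the growth factor *Ereg* (1.37), the metalloproteinase inhibitor *Timp2* (1.20) and *Inhba* (1.19), a subunit of activin A. Of 12 senescence marks and regulators, 8 had a positive log2 ratio, with the lowest value at -0.31, and 4 were raised and 0 were lowered. The raised genes were the cyclin-dependent kinase inhibitors *Cdkn2b* (1.28) and *Cdkn1a* (1.21), the p53 target *Mdm2* (1.06) and *Cdkn2a* (0.97). Which product of *Cdkn2a* its probes measured was not tested. *Cdkn1a* was called by its brightest probe, and another probe, well above background in all 4 channels, gave 0.28 and was not called. These lists were chosen with earlier results known and have no test of their own.

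**Figure D4:**
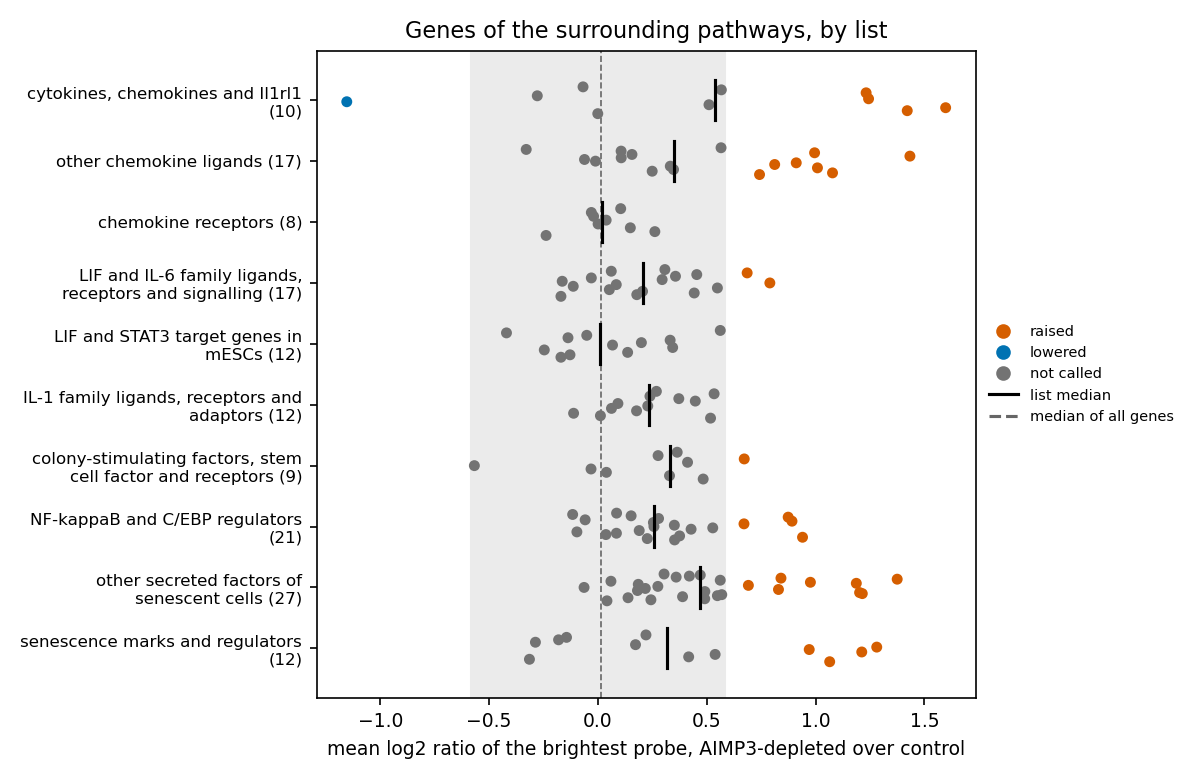
Mean log2 ratio (horizontal axis) of every tested gene of each pathway list, coloured by its call, with the number tested in brackets, a bar for the list median and a dashed line for the median of all genes. The secreted factors of senescent cells and the other chemokine ligands lie mostly to the right of 0, with medians of 0.47 and, over the 13 ligands well above background in every channel, 0.33 (the bar covers all 17), while the LIF and STAT3 targets and the chemokine receptors centre near 0.

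Several members are also made by cell types other than mESCs, and in bulk RNA a change in the share of cells of a type cannot be told apart from a change in RNA per cell. Of 16 markers of embryonic fibroblasts, 15 were tested, 12 were raised and 0 were lowered, with a median log2 ratio of 0.81, among them *Col1a1* (1.06), *Col1a2* (1.04) and *Col3a1* (0.95). Their summed signal was 20327 and 20037 in the control and 43109 and 44094 in AIMP3-depleted cells. These markers thus moved with *Ccl2*, *Ccl7* and *Csf1*, which fibroblasts also make, and against the brightest probe of *Cxcl12*, a stromal product, and the part of fibroblasts in these results was not tested.

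All 12 markers of primitive and parietal endoderm were raised, with a median of 1.08, including *Gata4* (0.77), *Gata6* (1.20) and *Sox7* (1.11). *Pdgfra* is in this list and in the fibroblast list. Of the 9 mESC markers, 0 were raised and 2 were lowered, *Tdgf1* (-0.59) and *Fgf4* (-0.87), with a median of -0.38. Only 1 was lowered with the processed signals or in the authors' table, and with median centring 0 were lowered and 1 was raised. Their summed signal was 144614 and 146209 in the control and 135039 and 136208 in AIMP3-depleted cells, a log2 difference of -0.10 on both arrays. *Dppa5a*, at a log2 ratio of 0.50, supplied 40.0% and 42.5% of the control sum, and without it, a choice made after seeing the data, the log2 difference was -0.45 and -0.49. All 9 were well above background in both channels, so the labelled cell type was present in both groups.

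Macrophage and mast cell markers were examined because macrophages make chemokines and mast cells express *Il1rl1*. Of 10 macrophage markers, 7 were tested, 1 was raised (*Lyz2*, 0.89) and 0 were lowered. Of these, 6 were well above background in all 4 channels, and all 6 had a positive log2 ratio, against 52.7% of all tested genes, with a median of 0.42. The seventh, *Adgre1*, was tested through its AIMP3-depleted channel only. The number raised was 3 without background subtraction and 4 with the processed signals, with median centring and in the authors' table. *Ptprc*, the leukocyte common antigen, and *Cx3cr1* were not well above background in any channel. Their summed signal was 9921 and 9792 in the control and 12965 and 12374 in AIMP3-depleted cells. *Itgam* made up 91.8% and 91.5% of the control sum, and the log2 difference was 0.39 and 0.34 with it and 0.53 and 0.55 without it. The part of macrophages in the chemokine results was not tested. Of 7 mast cell markers, 5 were not well above background in any channel, including *Cpa3*, *Cma1* and *Mcpt4*, and 0 were called. Of 6 endothelial markers, 5 were tested and 0 were called, with a median of -0.06.

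**Figure D5:**
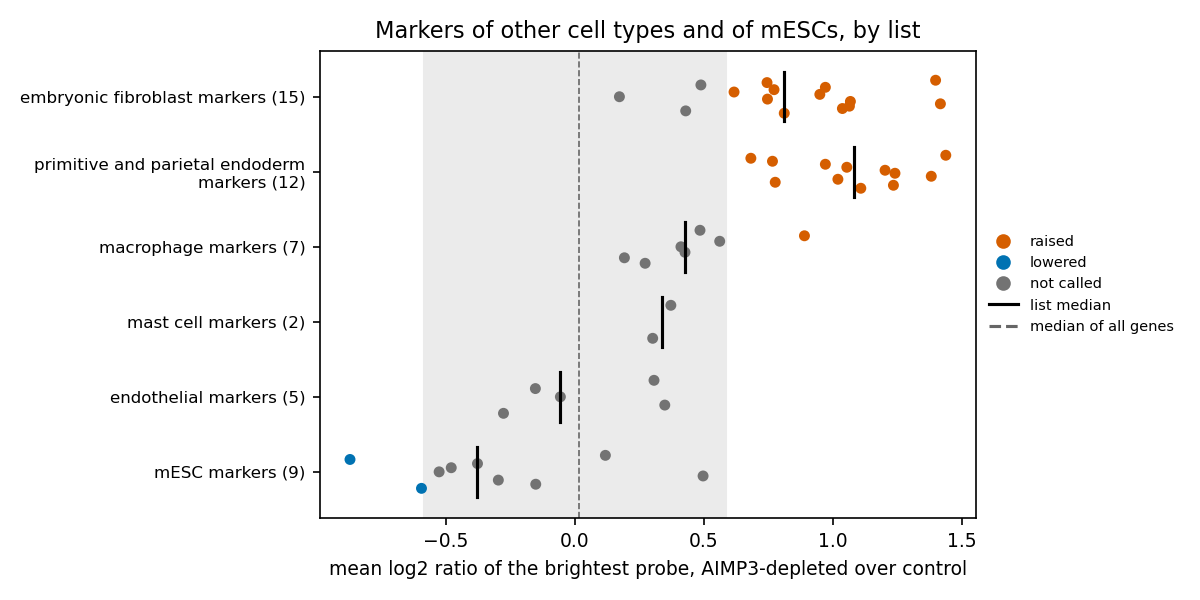
Mean log2 ratio (horizontal axis) of every tested gene in the lists of cell type markers, coloured by its call, with a bar for the median of each list and a grey band for values under 1.5-fold. The fibroblast and endoderm markers lie to the right of 0 with medians of 0.81 and 1.08, whereas the mESC markers have a median of -0.38 and only 2 of 7 mast cell markers could be tested.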

How the data were processed

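Per the labels, 2 AIMP3-depleted replicates (Cy5) were each compared with 1 control pool (Cy3). The authors deposited the scanner output, which holds the intensity of each spot and local background, not normalized, together with processed signals that the software (Feature Extraction 11.5.1.1 in the file header, a version that differs from the methods) background-subtracted and dye-normalized, and a log10 ratio. Per-spot p-values in these files were not used. The authors' deposited value table, made with GeneSpring, holds log2 ratios, which matched the log2 ratio of processed Cy5 over Cy3 plus a constant within 0.01 for 99.8% of probes, so its scale and direction are known. In it 0 sample columns were left unused.

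Median spot and background signals were used, as no mean signal is given, which the design had assumed. They were corrected with normexp (offset 50) and loess with control spots at weight 0. Spots with an outlier flag (215 and 227) were dropped and replicate spots averaged per probe. Of 55681 probes, 33012 were tested. The other 22669 had, on at least 1 array, no channel well above background or no unflagged spot, and were left out. lmFit and eBayes of limma 3.58.1 in R 4.3.3 tested the mean log2 ratio against 0, with 1 residual and 5.28 prior degrees of freedom, and p-values were adjusted by Benjamini-Hochberg over all tested probes. The brightest probe represents a gene. Accessions were named through RefSeq (31014 spots matched), so 14972 of the 24022 tested genes carry a symbol and a gene may be counted under several accessions. The array design and the promoter windows are on different builds, and the windows were matched by symbol only. The steps were tested on simulated data. The number of arrays limits the precision.

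Every member was named, with its receptors and partners, the 4 largest called genes of each list, and up to 3 markers of a cell type. The value of 1 gene that this rule names is not reported here. The members and lists were chosen with earlier results of these data known. Alternatives were other background corrections and dye normalizations, filters, probe summaries, thresholds and tests, the authors' table, and each replicate left out.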

Additional observations from a re-analysis of the deposited data

How the results depend on the processing

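Under the other background corrections, dye normalizations and the authors' table, 47 log2 ratios of member probes kept their direction and side of the threshold, 5 passed it newly (*Cxcl1* and *Cxcl10*) and 4 reversed. These 4 concerned *Il6st*, at 0.0021 without background subtraction, 0.22 with median centring (where the median of all genes was 0.18) and 0.0068 in the authors' table, and the dimmer *Cxcl12* probe, at -0.035 with processed signals. The number of raised members was 4, and it lay between 3 and 6 except with the methods' t-test after Benjamini-Hochberg adjustment, where 0 members were raised, 0 were lowered and 0 member probes were raised (unadjusted, 3 members were raised and 1 was lowered; limma gave 4 and 1). With the mean of all probes 0 members were lowered, because the *Cxcl12* probes disagree, and with no fold threshold 2 were lowered (*Cxcl12* and *Cxcl5*). Without replicate 1 or without replicate 2, where no test is possible, 5 members and 8 member probes were past the fold upwards and 1 member downwards. Of the 28 probe ratios from 1 replicate, 2 changed sign, *Lif* without replicate 1 (0.03 in place of -0.07) and *Il6st* without replicate 2 (0.02 in place of -0.00063), and 2 crossed the fold threshold, *Cxcl10* without replicate 1 (0.63) and *Cxcl1* without replicate 2 (0.60).

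Over all genes, 1327 were raised and 190 lowered (87.5% raised). The counts were 281 and 17 over 2-fold, 2823 and 65 with median centring (97.7% raised), 1853 and 715 with processed signals (72.2%), 2033 and 565 in the authors' table (78.3%), 864 and 128 with the methods' unadjusted t-test, 0 and 0 after its adjustment, and 7066 and 5387 with no fold threshold. Signal near background limits *Cxcl1*, *Cxcl5* and *Lif* most. Without its brightest marker, chosen after seeing the data, the summed log2 ratio of a marker list moved from 1.11 to 0.96 for fibroblasts, from 0.36 to 0.54 for macrophages and from -0.10 to -0.47 for mESCs. Each ratio is already paired within its array, and no other pairing exists because the control is 1 pool.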
